A study of Mus musculus with 3 samples.

Results

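The genes described here encode 10 enzymes that attach the sugar fucose to glycans or proteins: Fut1, Fut2, Fut4, Fut7, Fut8, Fut9, Fut10, Fut11, Pofut1 and Pofut2. They were measured in F9 cells, a mouse embryonal carcinoma line. The members are all probe sets whose platform annotation gives 1 of these symbols and no other, which came to 25 of 45101 probe sets and 10 of 18193 named genes. The series holds 1 group, undifferentiated F9 cells, with 3 labelled replicates and 1 Affymetrix Mouse Genome 430 2.0 array each. The cells grew on gelatin-coated plates in medium with fetal calf serum and carried no labelled treatment or genetic change. No differentiated, enzyme-deficient or other sample belongs to the design, so each gene was compared with background and not with another condition.

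Fucose is carried to these enzymes as GDP-fucose, which is made in the cytosol and transported into the Golgi and the endoplasmic reticulum. Certain α1,3-fucosyltransferases add fucose to N-acetyllactosamine chains and so form Lewis x, the sugar that antibodies read as stage-specific embryonic antigen 1 (SSEA-1), while Fut7 acts on chains already capped with sialic acid and forms sialyl Lewis x. Undifferentiated F9 cells are known to carry SSEA-1 and to lose it on differentiation, and Fut9 and Fut4 are the enzymes usually linked to Lewis x in mouse cells. The antigen itself was not measured on these arrays, which report transcripts only, and the question was which of the enzymes was detected.

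Of the 10 genes, 4 were above background: Fut8, Fut11, Pofut1 and Pofut2. The Lewis x enzymes Fut4 and Fut9 were not, and neither were the sialyl Lewis x enzyme Fut7, Fut1, Fut2 and Fut10. Background was set on each array as the 95th percentile of 127 probe sets for olfactory, vomeronasal and taste receptors and keratin-associated proteins, families with narrow expression. Replicates 1, 2 and 3 had thresholds of 44.6, 46.1 and 43.2 signal units. A gene was called by the probe set with its highest mean log2 signal. The call used limma's moderated test of log2 signal minus log2 threshold (one-sided, Benjamini-Hochberg over all probe sets, adjusted p below 0.05). The same signals chose the probe set and were tested, so genes with more probe sets had more chances to be called. Over all named genes outside the background families, 51.1% were called by the same rule, against 40.0% of the 10 enzymes. The median distance from the threshold was -0.61 log2 units over the 10 enzymes and 0.72 over all these genes. Being not above background does not show that a transcript is absent, and in bulk RNA few expressing cells and little RNA per cell cannot be told apart. No sample with known expression of these enzymes was measured, so whether the probe sets respond to their transcripts was not tested.

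**Figure D1:**
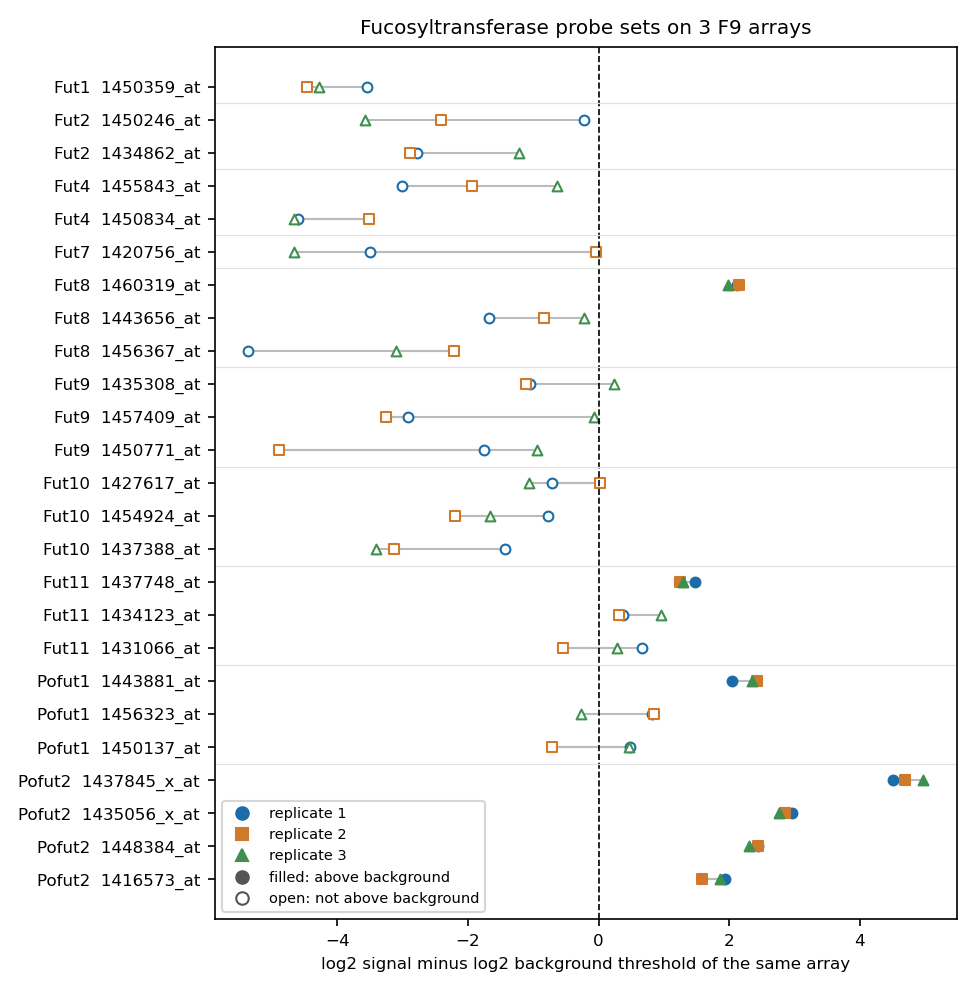
Log2 signal minus log2 background threshold of the same array for all 25 probe sets of the 10 genes, with 1 point per replicate and the dashed line at the threshold. The 7 filled probe sets, of Fut8, Fut11, Pofut1 and Pofut2, lie right of the line with their 3 points close together, and those of Fut4, Fut7 and Fut9 lie left of it apart from 1 point of Fut9 on replicate 3.

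The arrays resembled each other overall. Pearson's r of log2 signal between pairs of arrays lay between 0.917 and 0.920 over all probe sets, as a description, with median signals of 37.8 and 37.8 on the first pair of replicates and 36.0 on replicate 3. All 8 embryonal carcinoma markers tested were above background, among them Pou5f1 (6809 ± 279), Sox2 (4794 ± 208), Nanog (4866 ± 392) and Utf1 (3183 ± 430, mean signal ± SD, n = 3). None of 7 endoderm markers passed limma's test, although 4 of them, Gata4, Gata6, Hnf4a and Sox17, did against a lower threshold from bacterial controls. Afp, Ttr and Apoa1 lay below the threshold, at -2.17, -0.96 and -2.39 log2 units. Hnf4a (0.16 log2 units) and Gata4 (0.18) lay above it with limma adjusted p of 0.496 and 0.581. Gata6 (0.36; limma adjusted p = 0.0508) and Sox17 (0.61; 0.0735) lay above it too, with unadjusted p under 0.05, and these and Gata4 were named after their values were seen. Of 5 fibroblast markers only Thy1 passed (1.22), while Col1a1 (-1.17), Col1a2 (-0.21) and Col3a1 (-1.77) did not. Of 5 leukocyte markers only Cd68 passed (0.83), while Ptprc (-2.37), Cd3e (-2.63) and Itgam (-1.62) did not.

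Fut9, the α1,3-fucosyltransferase that acts on the outer end of lactosamine chains, was measured by 3 probe sets. The one that represents it (1435308_at) had signals of 21.5, 21.3 and 50.8 on replicates 1, 2 and 3. It exceeded the threshold on replicate 3 and lay below it on the other arrays. Its mean was -0.64 ± 0.36 log2 units from the threshold (SE, n = 3; limma adjusted p = 1), with a 95% interval from -1.75 to 0.46, so the interval ended at 1.38 times the threshold. The second probe set (1457409_at) had signals of 5.91, 4.83 and 41.2, and the third (1450771_at), designed on a RefSeq mRNA, 13.1, 1.56 and 22.4. All 3 Fut9 probe sets had their highest signal on replicate 3, where 8 of the 25 enzyme probe sets did. Without replicate 3 the representing probe set lay at -1.08 log2 units.

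Fut4, whose further names in the RefSeq gene table include SSEA-1, encodes the α1,3-fucosyltransferase best known from myeloid cells. Its representing probe set (1455843_at) had signals of 5.54, 12.0 and 27.6 on replicates 1, 2 and 3, below the threshold on every array. It lay at -1.86 ± 0.55 log2 units (SE, n = 3; limma adjusted p = 1), with a 95% interval from -3.54 to -0.19 that ended at 0.877 times the threshold. The probe set designed on the Fut4 RefSeq mRNA (1450834_at) had signals of 1.83, 4.04 and 1.71 and lay at -4.26 log2 units. On the 3 arrays 11.8%, 28.3% and 13.4% of the background probe sets were lower than this probe set.

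Fut7, which completes sialyl Lewis x on leukocytes, had a single probe set (1420756_at) with signals of 3.95, 44.7 and 1.70. Replicate 2 stood apart from the other arrays, and its signal was still under that array's threshold of 46.1. The mean was -2.73 ± 1.10 log2 units (SE, n = 3; limma adjusted p = 1) with a 95% interval from -6.08 to 0.61, the widest of the 25. The interval ended at 1.53 times the threshold. Selplg, the carrier protein of selectin ligands on leukocytes, lay at -2.93 log2 units; it was on the leukocyte marker list, and its value is given after it was seen.

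Across the Lewis x enzymes Fut4 and Fut9, 0 of 5 probe sets was called by limma, against 38.3% of all probe sets outside the background families. Of these 5, 0 had an unadjusted one-sided limma p under 0.05, and 1 of 15 signals exceeded its array's threshold. By position among the background families, the representing Fut9 probe set was higher than 72.4%, 64.6% and 99.2% of them on replicates 1, 2 and 3, and that of Fut4 higher than 30.7%, 52.0% and 87.4%. The Fut7 probe set was higher than 20.5%, 93.7% and 13.4%. The values thus ran through much of the background range and differed widely between replicates.

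**Figure D2:**
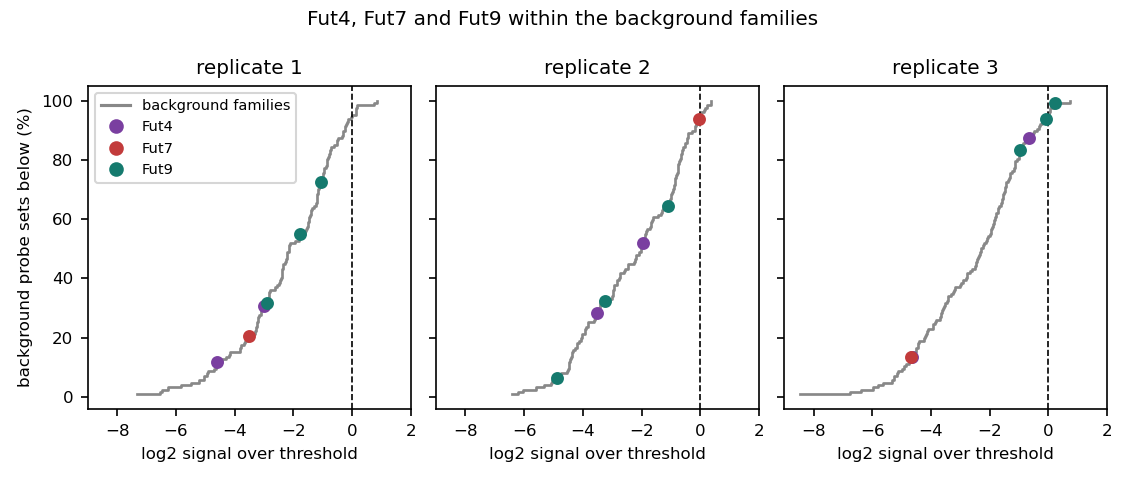
Share of the 127 background probe sets below a given log2 signal over the threshold, in 1 panel per replicate, with the probe sets of Fut4, Fut7 and Fut9 placed on the curve and the dashed line at the threshold. The points spread along much of the curve, and only the representing Fut9 probe set on replicate 3, at 99.2%, lies right of the line.

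Fut10 and Fut11 are placed beside the α1,3-fucosyltransferases by sequence. Fut11 was above background through 1437748_at, with signals of 124, 109 and 106 on replicates 1, 2 and 3, all over the threshold. Its mean was 1.34 ± 0.12 log2 units (SE, n = 3; limma adjusted p = 0.00176), or 2.53 times the threshold. The other Fut11 probe sets did not pass. The first of them (1434123_at) had signals of 57.9, 57.0 and 83.5, over the threshold on every array (0.55 log2 units; limma adjusted p = 0.0765). The second (1431066_at) had 70.8, 31.5 and 52.2, with replicate 2 below the threshold (0.13; 0.795). Among Fut4, Fut7, Fut9, Fut10 and Fut11, only Fut11 was therefore called. It is placed here by sequence, and whether it forms Lewis x was not tested.

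Fut10 was not above background on any of its 3 probe sets. The representing one (1427617_at) had signals of 27.3, 47.0 and 20.5, with replicate 2 just over its threshold and the other arrays below. It lay at -0.58 ± 0.28 log2 units (SE, n = 3; limma adjusted p = 1), and the 95% interval ended at 1.20 times the threshold. The other Fut10 probe sets had signals from 4.05 to 26.0 and none over the threshold.

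Fut1 and Fut2 are α1,2-fucosyltransferases that form the H antigen, and Fut2 is the secretor enzyme of epithelia. Fut1 had a single probe set (1450359_at) with signals of 3.80, 2.09 and 2.23, at -4.10 ± 0.24 log2 units from the threshold (SE, n = 3; limma adjusted p = 1). All 3 arrays gave a signal far below the threshold, and the 95% interval ended at 0.0977 times the threshold. Fut2 was represented by 1450246_at, with signals of 38.3, 8.66 and 3.63. Replicate 1 stood above the others and still under its threshold, and the mean was -2.07 ± 0.78 log2 units (SE, n = 3; limma adjusted p = 1). The other Fut2 probe set (1434862_at) had signals of 6.47, 6.25 and 18.5.

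Fut8 is the α1,6-fucosyltransferase that adds fucose to the innermost sugar of N-glycans, the core fucose of many secreted and surface glycoproteins. The probe set designed on its RefSeq mRNA (1460319_at) had signals of 194, 204 and 170 on replicates 1, 2 and 3. All lay far over the threshold, at 2.08 ± 0.11 log2 units (SE, n = 3; limma adjusted p = 0.000474), or 4.23 times the threshold. The other Fut8 probe sets were not above background. Of these, 1443656_at had 13.9, 25.7 and 37.1 and 1456367_at had 1.08, 9.95 and 5.01. The Fut8 call thus rested on 1 of 3 probe sets.

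Pofut1 and Pofut2 work in the endoplasmic reticulum and put fucose directly on proteins. Pofut1 modifies epidermal growth factor-like repeats, including those of Notch receptors, and Pofut2 modifies thrombospondin type repeats. Pofut1 was represented by 1443881_at, with signals of 184, 249 and 221, all over the threshold (2.28 ± 0.14 log2 units, SE, n = 3; limma adjusted p = 0.000648). Its other probe sets straddled the threshold. Of these, 1456323_at had 78.2, 83.3 and 35.9 (0.47 log2 units; limma adjusted p = 0.266). The probe set on the RefSeq mRNA, 1450137_at, had 62.5, 28.2 and 59.8 (0.08; 0.931).

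Pofut2 was the only member called on every probe set, 4 of 4. The representing one (1437845_x_at) had signals of 1011, 1191 and 1355 and lay at 4.72 ± 0.15 log2 units (SE, n = 3; limma adjusted p = 0.000155). The _x_at ending marks probes that may also match other sequences. The probe sets without that ending also passed, 1448384_at with signals of 241, 251 and 214 (2.40 log2 units; limma adjusted p = 0.00032) and 1416573_at with 171, 138 and 156 (1.79; 0.00115). The remaining _x_at probe set (1435056_x_at) had 346, 333 and 294 (2.86; 0.00023). Pofut2 was called with either choice of probe set, but its distance from the threshold depended on it.

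Several probe sets measured 8 of the members, and for 3 of these, Fut8, Fut11 and Pofut1, some passed and others did not. The same was true of 39.9% of all such named genes outside the background families. Among all 25 probe sets, 7 were called, or 8 by the plain rule of exceeding the threshold on all 3 arrays, and 12 exceeded it on none. Of all probe sets outside the background families, 38.3% were called. The plain rule took 53.8% of named genes, and by it the same 4 enzymes passed on their representing probe sets.

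The spread between arrays went with the call. This is partly built in, because limma's test uses the same spread and a large one makes a call less likely. The 7 called probe sets had an SD of log2 signal between 0.12 and 0.22, and their highest array was at most 1.35 times their lowest. The 18 others had SDs between 0.31 and 2.45, with a median of 0.72, close to the median of 0.75 for all probe sets not called. The median for all called probe sets was 0.13, against 0.14 for the called enzyme probe sets. Enzyme probe sets not called thus differed more between replicates, with a highest array from 1.46 (Fut11, 1434123_at) to 26.2 (Fut7) times the lowest. This limits any statement on the level of Fut4, Fut7 and Fut9.

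**Figure D3:**
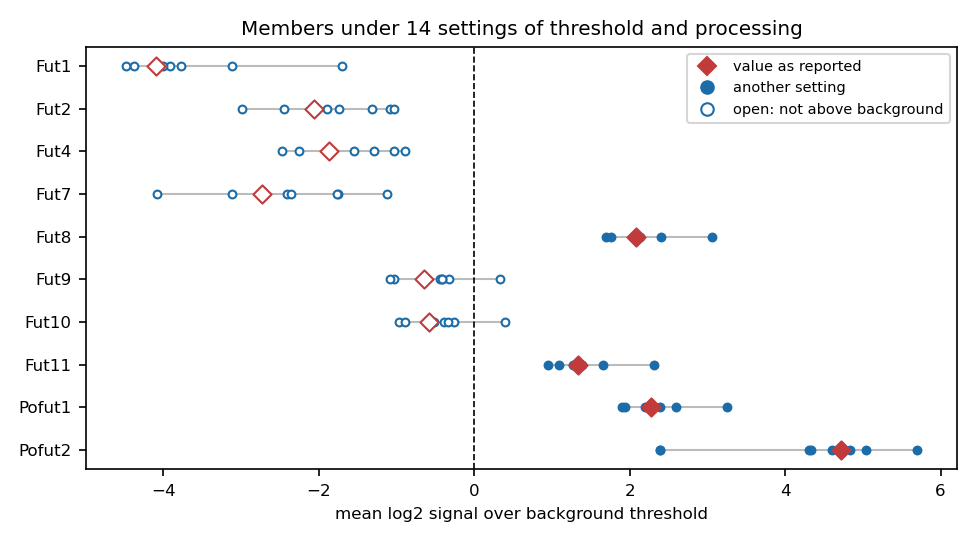
Mean log2 signal over the background threshold of the representing probe set of each gene, with a diamond for the value as reported and circles for the other settings; filled symbols were above background. Fut8, Fut11, Pofut1 and Pofut2 are filled in all 14 settings, and the other 6 genes have open symbols wherever they were tested.

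The 4 calls held under all 13 alternatives, which moved the threshold, the background families, the normalization, the filter, the probe set and the replicates. The alternatives on the probe set changed it for Pofut2 only. Fut8, Fut11 and Pofut1 kept the same probe set there, so their calls were not tested against another one. Their other probe sets were not called in the main setting. Of the 6 genes not above background none was called under any alternative that tested it. Fut9 and Fut10 lay above a lower threshold from bacterial controls without passing the test, at 0.33 log2 units (limma adjusted p = 0.422) and 0.39 (0.201). Fut4 stayed below that threshold too, at -0.89.

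The genes that supply the sugar donor were all above background, 6 of 6, against 51.1% of all named genes outside the background families. Gmds and Gfus, which turn GDP-mannose into GDP-fucose, had mean signals of 181 ± 34.0 and 729 ± 33.9 (SD, n = 3 here and below), 2.01 and 4.03 log2 units over the threshold. The salvage enzymes Fcsk, a fucose kinase, and Fpgt, which forms GDP-fucose from fucose phosphate, had 114 ± 6.86 and 143 ± 31.0. Slc35c1, the GDP-fucose transporter of the Golgi, had 144 ± 31.3, and its relative Slc35c2 had 175 ± 25.4. Of the other Slc35c2 probe sets, 1460731_at passed at 1.61 log2 units and 1420055_at lay at -2.93. The Fcsk call rested on an _x_at probe set, and its only plain probe set lay at -0.17 log2 units. The other Fcsk _x_at probe set did not pass (0.42 log2 units, limma adjusted p = 0.102). For Gmds the other probe set, an _x_at one, lay at -0.11 log2 units. The fucosidases Fuca1 and Fuca2, which remove fucose, were also above background, at 682 ± 34.2 and 101 ± 10.04. The Fuca2 call came from 1 of 3 probe sets, an _a_at one, and its 2 plain probe sets lay at -4.00 and -1.65 log2 units.

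Lactosamine chains, the acceptor on which Lewis x is built, are made by alternating galactosyltransferases and N-acetylglucosaminyltransferases. Of the 12 genes listed for them 8 were above background (66.7%), against 51.1% of all named genes outside the background families. Among the galactosyltransferases B4galt6, known for lactosylceramide synthesis, had a mean signal of 1615 ± 89.6, and B4galt1 had 344 ± 6.61. B4galt3 had 375 ± 24.9 and B4galt5 had 199 ± 24.4. The other B4galt3 probe set lay at -3.90 log2 units. The B4galt5 value came from an _s_at probe set, whose probes can match transcripts of several genes. The other B4galt5 probe set lay at -3.23 log2 units. B4galt4 (67.5 ± 8.81) passed at 0.59 log2 units (limma adjusted p = 0.0322), but not with any 1 replicate left out (0.0782 to 0.115). B4galt2 (72.5 ± 31.5) did not pass (0.21), and passed without replicate 3 (0.0378).

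Of the chain-extending enzymes, B3gnt2, the main poly-lactosamine synthase, stood at 835 ± 30.8. B3gnt5, which starts lactosamine chains on glycolipids, had 578 ± 30.3, and B3gnt7 had 391 ± 58.3. The other B3gnt5 probe set did not pass (0.75 log2 units, limma adjusted p = 0.0738). B3gnt3 (-3.06 log2 units), B3gnt4 (-2.71) and B3gnt8 (-4.00) lay far below the threshold. Enzymes for the chain and its donor were thus called while neither Fut4 nor Fut9 was; the difference between these lists was not tested.

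Other enzymes can cap or branch the same chains, and 5 of the 8 measured genes of that list were above background (62.5%). The share was 51.1% over all named genes outside the background families. The sialyltransferases St3gal3 (217 ± 49.9) and St3gal4 (133 ± 33.0) passed. St3gal6 (102 ± 25.5) passed on 1 of 5 probe sets, an _x_at one, and its 3 plain probe sets lay at -3.85, -3.46 and -3.90 log2 units. St6gal1 (59.8 ± 8.19) had an adjusted p of 0.0516 by limma, and 0.0151 with the threshold at the 90th percentile. Gcnt2, which makes the I branch, had 321 ± 17.4 and was called on 2 of 8 probe sets. Chst10, the sulfotransferase of the HNK-1 epitope, had 183 ± 22.8, while B3gat1 (-0.91 log2 units) and B3gat2 (-4.18), the glucuronyltransferases that precede it, were not above background. Ggta1 had no probe set with that single symbol and was not analysed here.

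**Figure D4:**
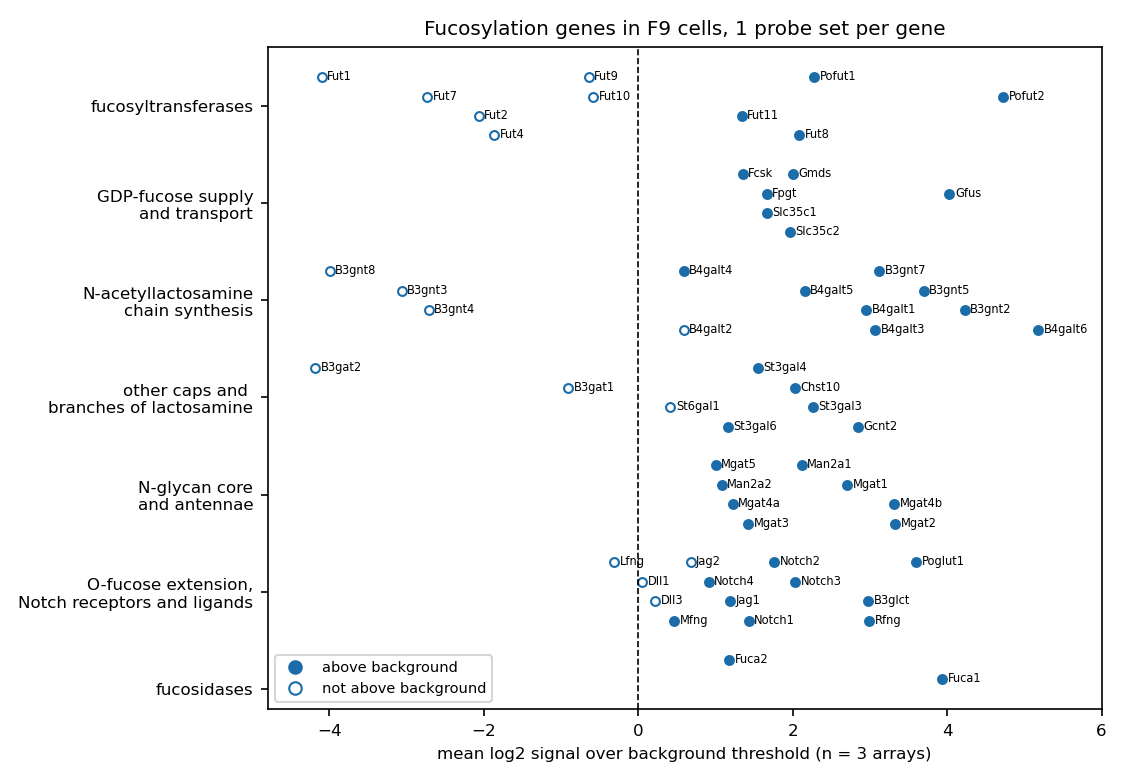
Mean log2 signal over the background threshold for the 10 fucosyltransferases and for the genes of 6 lists around them, with 1 probe set per gene, filled where above background; height within a row only separates the names. The donor, N-glycan and fucosidase rows are filled throughout, while Fut1, Fut2, Fut4, Fut7, Fut9 and Fut10 are open and left of the dashed threshold.

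The partners of the called enzymes were also measured. Fut8 acts on N-glycans prepared by Mgat1, and all 8 genes listed for the N-glycan core and antennae were above background. Mgat1 stood at 294 ± 52.1, Mgat2 at 447 ± 9.58, Mgat3 at 120 ± 6.44 and Mgat4a at 105 ± 14.9. Mgat3 was called on 1 of 3 probe sets and Mgat4a on 1 of 2. Of 13 genes for the extension of O-fucose, for Notch receptors and for their ligands, 9 passed. Rfng (355 ± 24.6), 1 of the Fringe enzymes that lengthen the O-fucose made by Pofut1, was clear of the threshold at 2.99 log2 units. B3glct, which lengthens the O-fucose made by Pofut2, stood at 357 ± 82.2 and 2.98 log2 units. Mfng (61.9 ± 8.44) passed at 0.46 (limma adjusted p = 0.0457), but not with any 1 replicate left out (0.0904 to 0.18). Lfng (-0.31), Dll1 (0.05), Dll3 (0.22) and Jag2 (0.68) did not pass. Jag2 passed without replicate 3 (limma adjusted p = 0.0412), and the list then again counted 9; without replicate 1 or without replicate 2 it counted 7. Over the 6 lists together 38 of 49 genes were called (77.6%), against 51.1% of all named genes.

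Promoter windows were available in a RefSeq table (GRCm38.p6) for 7 members, from 250 bases before to 50 bases after an annotated start, and not for Fut2, Fut9 and Fut10. They are described by CG dinucleotides, a pair that reads the same on both strands, of which the median over all 32851 windows was 7, with at least 1 in 94.6% of them. Pofut1, a called gene, had 45 CG in its window, and 1.93% of all windows had at least as many. Pofut2 had 32 (9.52% of windows had at least as many) and Fut11 had 15 (34.6%). Fut8 has 4 windows, with 18, 39, 0 and 4 CG in the order of their coordinates. Of the genes not above background, Fut4 had 18 (29.7%), Fut1 15 (34.6%), and the windows of Fut7 had 8 and 1. Fut11 and Fut1 thus had equal counts on different sides of the call. The windows of Pofut1 (chr2:153241282-153241581, plus strand) and Fut4 (chr9:14752073-14752372, minus strand) are shown, 1 called and 1 Lewis x gene, with every CG in capitals.
Pofut1: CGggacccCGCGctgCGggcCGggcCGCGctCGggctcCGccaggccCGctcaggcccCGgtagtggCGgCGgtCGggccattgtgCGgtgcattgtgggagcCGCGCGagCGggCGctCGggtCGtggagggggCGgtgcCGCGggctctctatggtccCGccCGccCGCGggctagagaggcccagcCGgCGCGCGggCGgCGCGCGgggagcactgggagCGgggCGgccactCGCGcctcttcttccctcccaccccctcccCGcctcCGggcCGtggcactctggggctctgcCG
Fut4: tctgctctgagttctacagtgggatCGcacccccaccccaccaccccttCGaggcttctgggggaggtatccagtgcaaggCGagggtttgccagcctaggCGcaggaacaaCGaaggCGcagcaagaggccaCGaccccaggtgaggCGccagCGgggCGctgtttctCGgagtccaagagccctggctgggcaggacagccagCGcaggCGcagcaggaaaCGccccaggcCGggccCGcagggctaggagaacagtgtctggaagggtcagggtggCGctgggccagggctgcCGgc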

How the data were processed

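RNA from 3 samples of undifferentiated F9 cells was hybridised to 1 array each. The authors deposited 1 linear signal intensity per probe set and array, made with GCOS 1.4 per the submitters' processing notes. For the signal algorithm and detection calls, the sources used here give nothing. The 2% trimmed mean was 250 on every array, so the arrays had been scaled, and no other normalization was applied. Gene symbols came from GEO's platform annotation of 2016; 34945 probe sets had 1 symbol, 932 several and, controls aside, 9160 none. All 10 members' gene identifiers were in the GRCm38.p6 gene table.

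The distance of log2 signal from log2 threshold was fitted in R 4.3.3 with limma 3.58.1 (lmFit, eBayes, intercept only). Benjamini-Hochberg adjustment ran over 45101 probe sets. The procedure was also run on simulated signals with set distances from the threshold. Such a run cannot show that the background families were unexpressed or that probe sets respond to their transcripts. Separate cultures are not stated in the labels, so the p-values reflect the spread of these 3 samples alone, possibly technical, and their number limits precision. No test compared levels between genes. Levels of different probe sets did enter the choice of the representing one, the background threshold and the medians. Differences in how strongly probe sets bind their targets were not corrected for. Members, lists, tests and alternatives were chosen with earlier results of these data known. Named are all members, all genes of the donor, chain, cap and fucosidase lists, the first 4 of other lists and up to 3 with the minority call. No gene was named for a similar pattern, as 3 arrays of 1 condition hold none.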

Additional observations from a re-analysis of the deposited data

How the results depend on the processing

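Of the member values under the 13 alternatives, 122 kept their sign and call, and 2 changed sign without a call: against bacterial controls Fut9 lay at 0.33 log2 units and Fut10 at 0.39. With dim probe sets left out, the 6 members not above background were tested on none of their probe sets, and the share of named genes called was 88.0%. Of 59 named pathway and marker genes, 39 changed neither sign nor call. Changes of sign came with the probe set chosen by suffix for B4galt5 (-3.23), Fcsk (-0.17), Fuca2 (-1.65), Hnf4a (-0.20) and St3gal6 (-3.46). Without _s_at and _x_at probe sets they came for B4galt5 (-3.23), Fcsk (-0.17), Hnf4a (-0.20) and St3gal6 (-3.46). Against bacterial controls they came for B3gat1 (0.070), Col1a2 (0.76), Lfng (0.67) and Ttr (0.022), at the 90th percentile for Col1a2 (0.11) and Lfng (0.011), and at the 99th for Dll1 (-0.33), Dll3 (-0.17), Gata4 (-0.20), Gata6 (-0.020) and Hnf4a (-0.22). With 1 replicate left out, Dll1 ranged from -0.0013 to 0.097, Gata4 from -0.017 to 0.45 and Lfng from -0.89 to 0.071. The endoderm markers called numbered 2 at the 90th percentile, with an offset of 16 or with dim probe sets left out, 1 with olfactory receptors only, quantile normalization or a variance trend, and 4 against bacterial controls. Leukocyte markers called by limma numbered 0 at the 99th percentile, where 0 had an unadjusted p under 0.05, and fucosidases 1 by suffix. The cause was not tested. With 1 replicate left out, the members above background numbered 4 each time. The median SD of log2 signal over the 25 probe sets then lay between 0.52 and 0.56, against 0.68 with all 3 arrays. A median SD from fewer arrays tends to be lower, so these values do not show a smaller spread. No paired analysis was possible because the series has 1 group.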

Other observations

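Related entries on the array lay outside the members. Sec1, a further mouse gene of the α1,2-fucosyltransferase family, was not above background. Its probe sets had signals of 41.0, 21.6 and 20.3 and of 21.8, 31.3 and 5.07 on replicates 1, 2 and 3, at -0.77 and -1.56 log2 units from the threshold. The pseudogene Fut4-ps1 had 37.3, 64.4 and 11.8, over the threshold on replicate 2 only, at -0.55 log2 units (limma adjusted p = 1). The gene table gives Fut10 as a further name of Sec1, and no Sec1 probe set was counted as Fut10.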
